A study of Mus musculus with 8 samples.

Results

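The secreted and membrane-bound proteinases that cut the extracellular matrix, and their tissue inhibitors, were followed in mouse ear skin treated with MC903 or with vehicle. The genes were taken by name: every protein-coding gene whose symbol begins with Mmp, Adamts or Timp followed by a digit, without the ADAMTS-like genes. This gave 46 of the 41388 genes in the count tables, namely 23 matrix metalloproteinases (MMPs), 19 ADAMTS proteinases and 4 tissue inhibitors of metalloproteinases (TIMPs). Mmp1a was kept because RefSeq lists it as coding, although GENCODE lists it as a polymorphic pseudogene. MC903 is calcipotriol, a vitamin D analog that produces itchy, atopic dermatitis-like inflammation in mouse skin. The MC903 group was 4 adult wild-type C57Bl/6 mice given 1 nmol on the skin each day for 12 days, and the vehicle group was 4 adult wild-type C57Bl/6 mice given ethanol. Libraries were made from whole ear, so epidermis, dermis, cartilage, muscle and any leukocytes were measured together, and the sex of the mice was not given in the sources used here.

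MMPs are zinc proteinases made as inactive precursors. They include collagenases, which cut intact fibrillar collagen, gelatinases, which digest denatured and basement membrane collagen, and stromelysins, which cut proteoglycans and glycoproteins and activate other MMP precursors. ADAMTS enzymes carry thrombospondin repeats and cleave large proteoglycans such as aggrecan and versican, trim procollagens or act on microfibrils. TIMPs bind the active site of MMPs and, in the case of Timp3, of several ADAM and ADAMTS enzymes as well. In wounded or inflamed skin, keratinocytes, fibroblasts and leukocytes each secrete a different set of these proteins.

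Library totals ran from 12310466 to 15575518 counts in the MC903 group and from 14223908 to 16837221 counts in the vehicle group, and 3 counts, taken as the detection floor, corresponded to 0.178 to 0.244 CPM (counts scaled to the library total) over the 8 libraries. Of 6 basal keratinocyte markers, 1 was higher and 2 were lower: Krt14 averaged 7077 CPM in MC903 ears and 1939 CPM in vehicle ears, while Krt15 averaged 564 CPM in MC903 ears and 3061 CPM in vehicle ears and Col17a1 249 CPM in MC903 ears and 346 CPM in vehicle ears. The library of vehicle replicate 2 stood apart: 8 salivary gland markers summed to 371771 CPM there, against 204 to 273 CPM in the 4 MC903 libraries and 196 to 463 CPM in the other 3 vehicle libraries. Without that library, 13 members were higher and 6 lower in MC903 ears, beside 13 and 9 with all 8 libraries. Over all genes, 3044 of 16447 tested were higher and 2820 lower without it, beside 3423 and 3259 of 16105 with all 8. CPM values below are adjusted with trimmed-mean (TMM) factors.

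More MMP genes rose than fell, ADAMTS genes went both ways, and the 4 TIMP genes split, with Timp1 higher and the other 3 lower. Of the 46 members, 38 had enough counts to test. The test was edgeR's quasi-likelihood test with Benjamini-Hochberg adjustment over all 16105 genes tested, at a threshold of 0.05. By it, 13 members were higher and 9 lower in MC903 ears. These shares, 34.2% and 23.7% of the members tested, stood beside 21.3% of all genes tested higher and 20.2% lower. The share lower was thus near the background. Without MC903 replicate 3, 4 members were lower. Over all genes, 2554 of 16422 tested were lower without it, beside 3259 of 16105 with all 8 libraries. With all 8 libraries, 57.9% of the members tested passed in either direction, against 41.5% of all genes tested. Among the MMPs 9 of 18 tested were higher and 1 lower, among the ADAMTS genes 3 of 16 were higher and 5 lower, and among the TIMPs 1 was higher and 3 lower. The median log2 fold change was 0.40 over the MMPs, -0.18 over the ADAMTS genes and -0.70 over the TIMPs, against -0.03 over all genes tested. The 4 MC903 libraries all lay above the 4 vehicle libraries in 12 members (19.8% of all genes tested did so) and all below them in 8 (18.9% of all genes tested), while 38.7% of all genes tested had no overlap in one direction or the other. Among the called members, Mmp8, Mmp10 and Mmp25 reached the filter on low counts in all 4 MC903 libraries but not in every vehicle library. Adamts18 reached it in all 4 vehicle libraries but not in every MC903 library. These 4 thus owed their test in part to the group in which they were higher. Among members not called, Mmp27 reached it in 3 MC903 and 4 vehicle libraries, and Mmp17 and Mmp21 each in 1 and 3. In whole tissue, fewer cells of a type and less RNA per cell cannot be told apart.

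**Figure D1:**
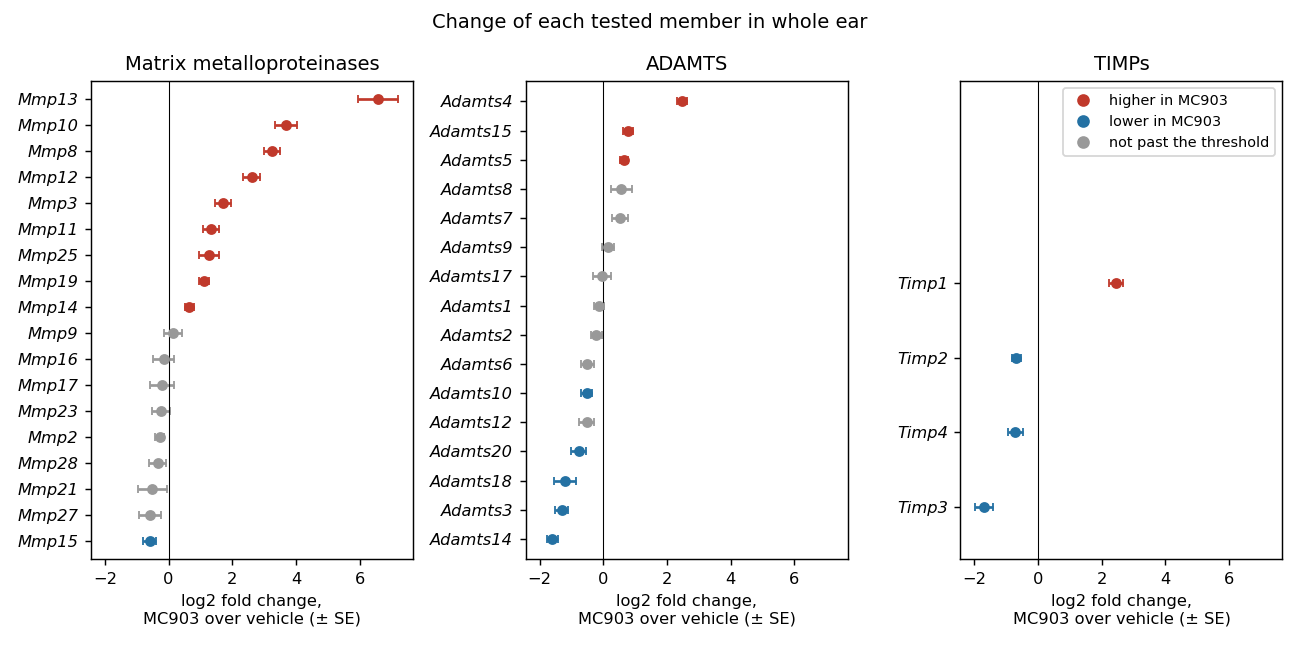
Log2 fold change of MC903 over vehicle for the 38 members tested (18 MMPs, 16 ADAMTS, 4 TIMPs), with bars for the standard error and 4 libraries per group. Mmp13 lies farthest to the right at 6.58, and Timp3 farthest to the left at -1.69.

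A run of 10 MMP genes sits side by side on chromosome 9, between positions 7272514 and 7699585 of mm10, a span of 427 kb. Of the 6 that could be tested, Mmp13, Mmp12, Mmp3, Mmp10 and Mmp8 were higher in MC903 ears and none was lower. Mmp10 and Mmp8 reached the filter in 2 and 1 vehicle libraries, so they owed their test in part to the MC903 group. The rest of the cluster had too few counts to test. Of all genes tested, 21.3% were higher and 20.2% lower. Of the 13 MMP genes elsewhere in the genome, 12 could be tested, with 4 higher and 1 lower. The nearest coding genes on either side went both ways. Before the cluster, Dync2h1 fell (-0.71, adjusted p = 0.00227) and Dcun1d5 rose (0.49, adjusted p = 0.0134), and after it Tmem123 rose (0.60, adjusted p = 0.0341) and Birc2 stood at -0.27 (adjusted p = 0.176).

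**Figure D2:**
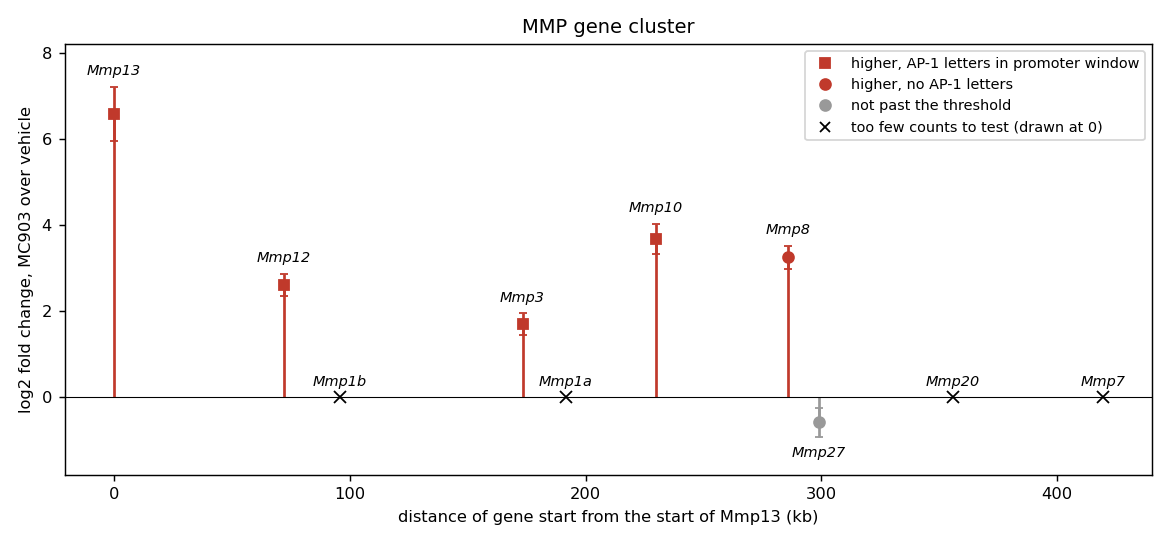
Log2 fold change (vertical axis, with standard error) of the 10 clustered MMP genes against the distance of their starts from the start of Mmp13 in kb. Mmp13 stands at 6.58, Mmp10 at 3.68, Mmp8 at 3.25, Mmp12 at 2.61 and Mmp3 at 1.70, while 4 genes had too few counts to test.

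The promoters of these genes are shown because many of them carry the letters TGAGTCA, the core of the element bound by AP-1, the Fos and Jun family of factors known to drive collagenase and stromelysin genes. RefSeq promoter windows (build GRCm38.p6) were at hand for 32 members, and the 250 bases before each annotated start were searched on both strands. The letters were found in 7 of the 10 clustered genes, against none of the 22 members outside the cluster with a window, and in 4.46% of all 32851 promoter windows. Of the members with a window, 4 of 9 higher in MC903 ears held them, none of 8 lower, none of 9 not called and 3 of 6 not tested. All 7 lie in the cluster, where no member was lower. These counts by direction therefore cannot be told apart from position in the cluster. The TATA box letters TATAAA, searched on the gene's strand, were in 9 of the 32 members and in 7.59% of all windows. For both sets of letters, members were counted by gene, with a match in any window, and the shares of all windows by window. The 32 members had 35 windows. The vitamin D response element, searched on both strands as an exact pair of AGGTCA letters in the same direction with 3 bases between them, was in no member's window and in 2 of all windows. So strict a search finds almost nothing in any window, so it does not show that the members lack such elements. A match is a description of the letters and shows no binding. The last 100 bases before the start follow, 5′ to 3′ on the gene's strand, with the AP-1 and TATA letters in capitals, for the 5 clustered genes that rose and for Mmp1b, which had too few counts to test.
Mmp13 (chr9:7272414-7272513, plus strand): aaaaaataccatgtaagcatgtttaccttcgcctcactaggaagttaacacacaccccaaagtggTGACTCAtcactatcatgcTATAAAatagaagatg
Mmp12 (chr9:7347274-7347373, plus strand, the second of its annotated starts): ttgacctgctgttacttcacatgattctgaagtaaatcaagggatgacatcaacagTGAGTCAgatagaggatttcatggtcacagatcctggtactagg
Mmp3 (chr9:7445722-7445821, plus strand): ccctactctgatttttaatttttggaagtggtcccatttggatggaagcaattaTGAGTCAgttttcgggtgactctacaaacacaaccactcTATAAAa
Mmp10 (chr9:7502242-7502341, plus strand): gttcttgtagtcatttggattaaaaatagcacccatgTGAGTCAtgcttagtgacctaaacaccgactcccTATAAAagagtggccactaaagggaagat
Mmp8 (chr9:7558329-7558428, plus strand): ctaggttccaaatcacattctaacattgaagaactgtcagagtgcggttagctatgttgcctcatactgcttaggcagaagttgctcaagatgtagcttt
Mmp1b (chr9:7388027-7388126, minus strand): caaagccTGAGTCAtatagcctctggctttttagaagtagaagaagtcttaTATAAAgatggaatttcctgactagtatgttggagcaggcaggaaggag
The AP-1 letters begin 35 bases before the annotated start in Mmp13, 44 in Mmp12, 46 in Mmp3, 63 in Mmp10 and 93 in Mmp1b. Mmp12 has another annotated start, farther upstream, whose window does not hold them. Mmp8 rose without them in its window. Mmp1a and Mmp7 also hold them, 73 and 63 bases before their starts, yet had 5 and 0 counts over the 4 MC903 libraries and 2 and 0 over the 4 vehicle libraries.

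Both collagenases with enough counts rose, and Mmp13 showed the largest fitted change of the members tested. Mmp13, the main interstitial collagenase of mice, had 52.6, 174, 273 and 94.9 CPM in the MC903 libraries, against 0.825, 3.77, 0.914 and 0.999 CPM in the vehicle libraries. Every MC903 library lay far above every vehicle library, but the MC903 values themselves were spread over a wide range. The log2 fold change was 6.58 ± 0.64 (SE; adjusted p = 1.69e-05), and 7.33 without vehicle replicate 2, its highest vehicle library. Mmp8, the collagenase stored in neutrophil granules, had 5.80, 8.0, 5.37 and 6.90 CPM in MC903 ears, against 1.00, 0.692, 0.514 and 0.500 CPM in vehicle ears (3.25 ± 0.26, adjusted p = 5.53e-06). The groups did not overlap. Mmp1b, a rodent counterpart of human interstitial collagenase, had 27 counts over the 4 MC903 libraries and 2 over the 4 vehicle libraries, a ratio per depth of 15.8 with a 95% exact interval of 3.97 to 137 that covers counting error only. Of its exonic bases, 10.8% are also exonic in Mmp12 on the other strand, a gene with 1715 counts over the MC903 libraries and 336 over the vehicle libraries, and reads from that stretch cannot be told apart without strand.

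The 3 stromelysins and macrophage elastase also rose. Mmp3, stromelysin 1, which cuts proteoglycans and activates collagenase precursors, had 251, 250.5, 299.7 and 310.3 CPM in MC903 ears, against 62.6, 127, 97.9 and 54.7 CPM in vehicle ears (1.70 ± 0.25, adjusted p = 0.00028). The 4 MC903 libraries were close to each other, and the vehicle libraries differed more among themselves. Mmp10, stromelysin 2, which migrating keratinocytes make at wound edges, had 8.23, 7.25, 9.74 and 7.46 CPM in MC903 ears, against 0.884, 0.845, 0.686 and 0.125 CPM in vehicle ears (3.68 ± 0.35, adjusted p = 1.58e-05). Its lowest vehicle library, replicate 4, lay under the detection floor. Mmp3 and Mmp10 are close relatives: 8.39% of the 50-base words of Mmp3 transcripts were also found in Mmp10 or Gm15244, and 8.37% of those of Mmp10 in Mmp3. How reads shared between genes were counted was not given in the sources used here. Mmp11, stromelysin 3, which furin activates before secretion, had 29.3, 17, 12.7 and 14.6 CPM in MC903 ears, against 8.48, 6.45, 7.43 and 6.81 CPM in vehicle ears (1.33 ± 0.24, adjusted p = 0.00133). Mmp12, the elastase of macrophages, had 26.6, 46.5, 26.6 and 29.4 CPM in MC903 ears, against 3.30, 5.69, 7.48 and 4.68 CPM in vehicle ears (2.61 ± 0.26, adjusted p = 2.33e-05). In each of these 4 genes the groups did not overlap.

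**Figure D3:**
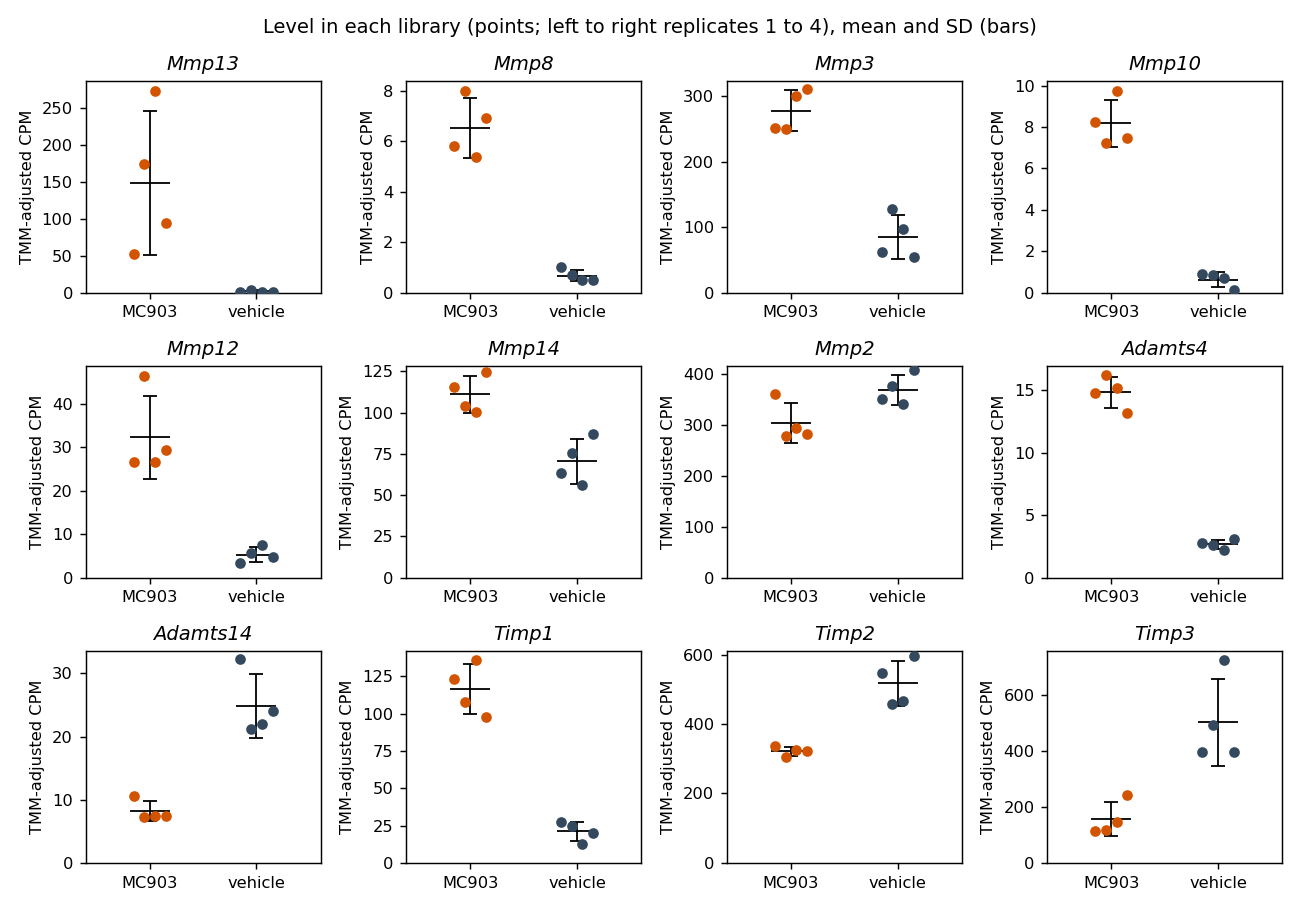
TMM-adjusted CPM of 12 members in each library (points), with the mean and SD of the 4 libraries per group. The Mmp13 points of MC903 ears run from 52.6 to 273 CPM and all vehicle points lie at or under 3.77 CPM, whereas the Mmp2 points of the groups overlap.

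The gelatinases did not pass the test. Mmp2, gelatinase A, a product of fibroblasts, had 361, 279, 294 and 281 CPM in MC903 ears, against 351, 375, 341 and 408 CPM in vehicle ears (-0.28 ± 0.15, adjusted p = 0.149). The groups overlapped only through MC903 replicate 1, and without that library Mmp2 was called lower (-0.37, adjusted p = 0.0409). Mmp9, gelatinase B, which neutrophils and keratinocytes secrete, ranged from 4.22 to 6.95 CPM in MC903 ears and from 3.20 to 8.45 CPM in vehicle ears (0.13 ± 0.28, adjusted p = 0.725). Its sign turned without vehicle replicate 3 (-0.06).

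Membrane-type MMPs went both ways. Mmp14, which is anchored in the plasma membrane and activates Mmp2 precursor together with Timp2, had 116, 104, 100.2 and 125 CPM in MC903 ears, against 63.3, 75.4, 56.1 and 87.3 CPM in vehicle ears (0.66 ± 0.15, adjusted p = 0.00515). All MC903 libraries were above all vehicle libraries. Mmp25, a lipid-anchored MMP of neutrophils, had 2.50, 2.92, 2.19 and 1.05 CPM in MC903 ears, against 0.707, 0.845, 0.971 and 1.06 CPM in vehicle ears (1.26 ± 0.32, adjusted p = 0.00853). Here MC903 replicate 4 fell within the vehicle range. Mmp15, the second of the transmembrane MMPs, was lower, with 5.73, 6.67, 4.64 and 5.52 CPM in MC903 ears against 10.3, 9.76, 5.77 and 8.25 CPM in vehicle ears (-0.59 ± 0.21, adjusted p = 0.0377). The groups overlapped, and the call was lost with limma-voom and without any of 6 single libraries, with adjusted p from 0.0101 to 0.111 over all alternatives. It was lost without MC903 replicate 1 (adjusted p = 0.0582), 3 (0.111) or 4 (0.0647) and without vehicle replicate 1 (0.105), 2 (0.0898) or 4 (0.0582). Mmp16 and Mmp17 did not pass the test, at -0.14 ± 0.33 and -0.20 ± 0.37, and Mmp24 had 3 counts in each group of 4 libraries.

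Of the remaining MMPs, 1 of the 5 tested rose. Mmp19, a soluble MMP that cuts basement membrane proteins, had 24.2, 21.5, 23.3 and 32.2 CPM in MC903 ears, against 11.9, 10.9, 13.5 and 10.2 CPM in vehicle ears (1.12 ± 0.16, adjusted p = 0.00023). The groups did not overlap. Of its exonic bases, 23.1% also belong to Tmem198b on the other strand, which itself missed the threshold (-0.39, adjusted p = 0.182), and no step that marks the strand is given in the protocols. Mmp28, the epilysin of keratinocytes, had a log2 fold change of -0.34 ± 0.27, Mmp23 -0.24 ± 0.28, Mmp21 -0.51 ± 0.47 and Mmp27 -0.58 ± 0.34, and none passed the test. Mmp28 shares 12.0% of its exonic bases with other genes. For Mmp27, 74.9% of the exonic bases are shared with another gene model on the same strand that had 0 counts in all 8 libraries, so its level is uncertain. Mmp20, the enamel proteinase of teeth, had 0 counts in the MC903 group and 2 in the vehicle group, and matrilysin, Mmp7, had 0 in both.

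Among the ADAMTS enzymes that cleave aggrecan and versican, 3 of 7 rose and 1 fell. Adamts4, an aggrecanase induced by inflammatory cytokines, had 14.8, 16.2, 15.2 and 13.2 CPM in MC903 ears, against 2.77, 2.61, 2.23 and 3.12 CPM in vehicle ears (2.47 ± 0.16, adjusted p = 1.29e-06). The libraries of each group were close together and the groups lay far apart. Adamts5, the other main aggrecanase and a versican-cleaving enzyme of dermal fibroblasts, had 56.5, 84.2, 71.3 and 74.6 CPM in MC903 ears, against 42.5, 50.3, 45.0 and 45.4 CPM in vehicle ears (0.65 ± 0.14, adjusted p = 0.00299). Adamts15, which also cleaves versican, had 17.5, 15.5, 11.1 and 15.7 CPM in MC903 ears, against 7.54, 10.5, 8.11 and 8.81 CPM in vehicle ears (0.78 ± 0.17, adjusted p = 0.00394). Neither of these overlapped between groups.

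Adamts20, known from the belted coat mutation that disturbs the spread of melanoblasts, was lower, with 0.810, 1.00, 0.928 and 0.974 CPM in MC903 ears against 1.53, 1.54, 1.89 and 1.37 CPM in vehicle ears (-0.77 ± 0.23, adjusted p = 0.0214). The groups did not overlap, but the gene rested on 50 counts over the MC903 libraries and 101 over the vehicle libraries. Its call was lost with DESeq2 (adjusted p = 0.0697), without a filter (0.0633), with the replicate number as a block (0.0649), without MC903 replicate 3 (0.0565) and without vehicle replicate 3 (0.0642), and its lowest adjusted p over the alternatives was 0.0134. Adamts1, the most abundant ADAMTS gene per length in both groups, had 59.2, 96.6, 90.6 and 70.3 CPM in MC903 ears, against 86.7, 87.8, 97.2 and 77.6 CPM in vehicle ears (-0.14 ± 0.16, adjusted p = 0.501). Its MC903 values reached from below the vehicle range to just under the top of it. Adamts8 and Adamts9, the last with 14.4% of its exonic bases shared with other genes, did not pass the test either, at 0.57 ± 0.33 and 0.15 ± 0.18. Adamts1 and Adamts5 are neighbours on chromosome 16 (85793827 to 85803113 and 85858170 to 85901125 in mm10), as are Adamts15 and Adamts8 on chromosome 9 (30899155 to 30922452 and 30942562 to 30963838), and in each pair only the gene named as raised passed the test. The difference within a pair was not tested.

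In the group of procollagen N-proteinases, which trim the amino-terminal propeptide before collagen fibrils form, 2 of 3 fell. Adamts14 had 10.7, 7.33, 7.42 and 7.46 CPM in MC903 ears, against 32.2, 21.1, 22.1 and 24.1 CPM in vehicle ears (-1.60 ± 0.18, adjusted p = 5.45e-05). Adamts3, which also processes the lymphatic growth factor VEGF-C, had 3.51, 4.83, 5.76 and 6.65 CPM in MC903 ears, against 10.3, 13.1, 14.0 and 13.9 CPM in vehicle ears (-1.30 ± 0.20, adjusted p = 0.00044). In both genes every MC903 library lay below every vehicle library. Adamts2, the main enzyme of this kind in dermis, ranged from 48.4 to 68.7 CPM in MC903 ears and from 51.9 to 83.0 CPM in vehicle ears (-0.21 ± 0.16, adjusted p = 0.307).

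Of the 6 other ADAMTS genes tested, 2 were lower and none higher. Adamts10, which associates with fibrillin microfibrils, had 18.4, 10.2, 13.3 and 12.0 CPM in MC903 ears, against 18.2, 21.4, 17.2 and 20.6 CPM in vehicle ears (-0.52 ± 0.18, adjusted p = 0.0360). The groups overlapped through MC903 replicate 1. The call was lost without MC903 replicate 2 (adjusted p = 0.101), 3 (0.0841) or 4 (0.0764), without vehicle replicate 1 (0.0531), 2 (0.0850) or 4 (0.0741), and with the replicate number as a block (0.0545), with a lowest value of 0.00314 over the alternatives. Adamts18 had 0.540, 0.750, 0.398 and 0.730 CPM in MC903 ears, against 1.30, 1.46, 0.857 and 1.94 CPM in vehicle ears (-1.20 ± 0.34, adjusted p = 0.0146). Its groups did not overlap, and it was not called without MC903 replicate 3 (adjusted p = 0.0515, the highest over the alternatives, against a lowest of 0.00875).

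Adamts6, another fibrillin-associated member, had all 4 MC903 libraries below all 4 vehicle libraries and still missed the threshold (-0.50 ± 0.21, adjusted p = 0.0755). Adamts12 and Adamts7, which degrade cartilage oligomeric matrix protein, stood at -0.52 ± 0.24 and 0.52 ± 0.24, and Adamts17 at -0.03 ± 0.29, and none passed the test. Adamts13, the plasma enzyme that cuts von Willebrand factor, had 8 counts in MC903 ears and 5 in vehicle ears, Adamts16 had 3 and 4, and Adamts19 had 4 and 19. The ratio of Adamts19 per depth was 0.246, with a 95% exact interval of 0.0610 to 0.742 for counting error only. Differences in Adamts13 and Adamts16 were not detectable at this depth.

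All 4 inhibitors changed, in opposite directions. Timp1, which inflammatory cytokines induce and which inhibits most soluble MMPs, had 124, 108, 136 and 97.8 CPM in MC903 ears, against 27.3, 24.7, 12.9 and 19.7 CPM in vehicle ears (2.46 ± 0.22, adjusted p = 9.47e-06). The lowest MC903 library was well above the highest vehicle library. Timp2, which is needed for activation of Mmp2 by Mmp14 and inhibits both, had 336, 305, 324 and 323 CPM in MC903 ears, against 548, 459, 465 and 595 CPM in vehicle ears (-0.68 ± 0.15, adjusted p = 0.00368). Its MC903 values were almost alike. Timp3, the matrix-bound inhibitor that also blocks Adam17, Adamts4 and Adamts5, had 114, 118, 146 and 244 CPM in MC903 ears, against 396, 494, 725 and 396 CPM in vehicle ears (-1.69 ± 0.28, adjusted p = 0.000736). The groups did not overlap. Of the exonic bases of Timp3, 21.3% overlap Syn3 on the other strand, which was also lower (-0.91, adjusted p = 0.00519) but had 96 counts over the MC903 libraries and 212 over the vehicle libraries, against 8327 and 32185 for Timp3.

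Timp4, the inhibitor most restricted in tissue, had 53.8, 24.6, 31.5 and 57.7 CPM in MC903 ears, against 67.9, 68.6, 74.5 and 64.5 CPM in vehicle ears (-0.72 ± 0.24, adjusted p = 0.0304). All MC903 libraries were below all vehicle libraries but fell into a lower and a higher pair. The call was lost without MC903 replicate 2 (adjusted p = 0.0597) or 3 (0.0927) and without vehicle replicate 1 (0.0559), 2 (0.0528) or 3 (0.0710), with a lowest value of 0.00961 over the alternatives. Markers of adipocytes, cells known to make Timp4, were lower in 4 of 6 cases and summed to 510 to 1147 CPM in MC903 ears and 877 to 2351 CPM in vehicle ears. Skeletal muscle markers were lower in 3 of 8 cases. The 8 summed to 4086, 1759, 3296 and 5770 CPM in MC903 ears, against 9761, 9657, 8207 and 3188 CPM in vehicle ears. Their order of libraries was that of Timp4 in MC903 ears but not in vehicle ears. In vehicle replicate 4 the muscle sum, 3188 CPM, lay within the MC903 range, while Timp4, at 64.5 CPM, lay above its MC903 range. The part of these tissues in the fall of Timp4 was not tested.

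Levels were compared between genes per length, as TMM-adjusted CPM per kilobase of exonic length. Summed over the 4 TIMPs, the level was 277, 232, 276 and 264 in MC903 ears, against 268, 255, 276 and 269 in vehicle ears, so the sums overlapped while the members behind them differed. Timp1 made up 50.1%, 52.4%, 55.3% and 41.8% of the TIMP level in MC903 ears, against 11.5%, 10.9%, 5.27% and 8.26% in vehicle ears. Timp2 made up 31.6 ± 1.56% in MC903 ears and 49.7 ± 6.05% in vehicle ears (SD, n = 4 each), and Timp3 7.30 ± 2.80% and 23.1 ± 6.71%. The order in MC903 ears was Timp1, Timp2, Timp4 and Timp3, with means of 131 ± 18.8, 82.6 ± 3.32, 29.6 ± 11.5 and 19.1 ± 7.48, where Timp4 and Timp3 overlapped in their spread. The order in vehicle ears was Timp2, Timp3, Timp4 and Timp1, with means of 133 ± 16.9, 61.7 ± 19.1, 48.6 ± 2.94 and 23.9 ± 7.15, where Timp3 and Timp4 overlapped in their spread.

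The summed MMP level was 362, 371, 435 and 383 in MC903 ears, against 193, 242, 203 and 217 in vehicle ears, 1.82 times as high on the means. Among the MMPs, Mmp3 and Mmp13 differed most between the groups in absolute level per length. Mmp3 ranked 1 of the 46 members per length in MC903 ears, at 155 ± 17.6, and rank 5 in vehicle ears, at 47.6 ± 18.7. Mmp2 supplied 32.9%, 24.7%, 22.3% and 24.2% of the MMP level in MC903 ears, against 60.0%, 51.0%, 55.2% and 62.0% in vehicle ears. Mmp13 supplied 5.43%, 17.5%, 23.4% and 9.26% in MC903 ears, and at most 0.581% in a vehicle library. The ADAMTS genes summed to 39.6 to 47.4 in MC903 ears and 43.4 to 45.6 in vehicle ears, an overlap, with Adamts4 at 7.13 ± 0.555% of that level in MC903 ears and 1.24 ± 0.155% in vehicle ears. The TIMP level divided by the MMP level was 0.767, 0.624, 0.634 and 0.688 in MC903 ears, against 1.39, 1.05, 1.36 and 1.24 in vehicle ears. These ratios are of RNA and do not measure protein or proteolytic activity. The length used for each gene covers all its annotated exons, so every level, rank, share and ratio per length depends on these lengths. That of Mmp12, 7237 bases, covers several transcripts. Among the TIMPs the lengths ran from 888 bases for Timp1 to 8144 for Timp3.

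**Figure D4:**
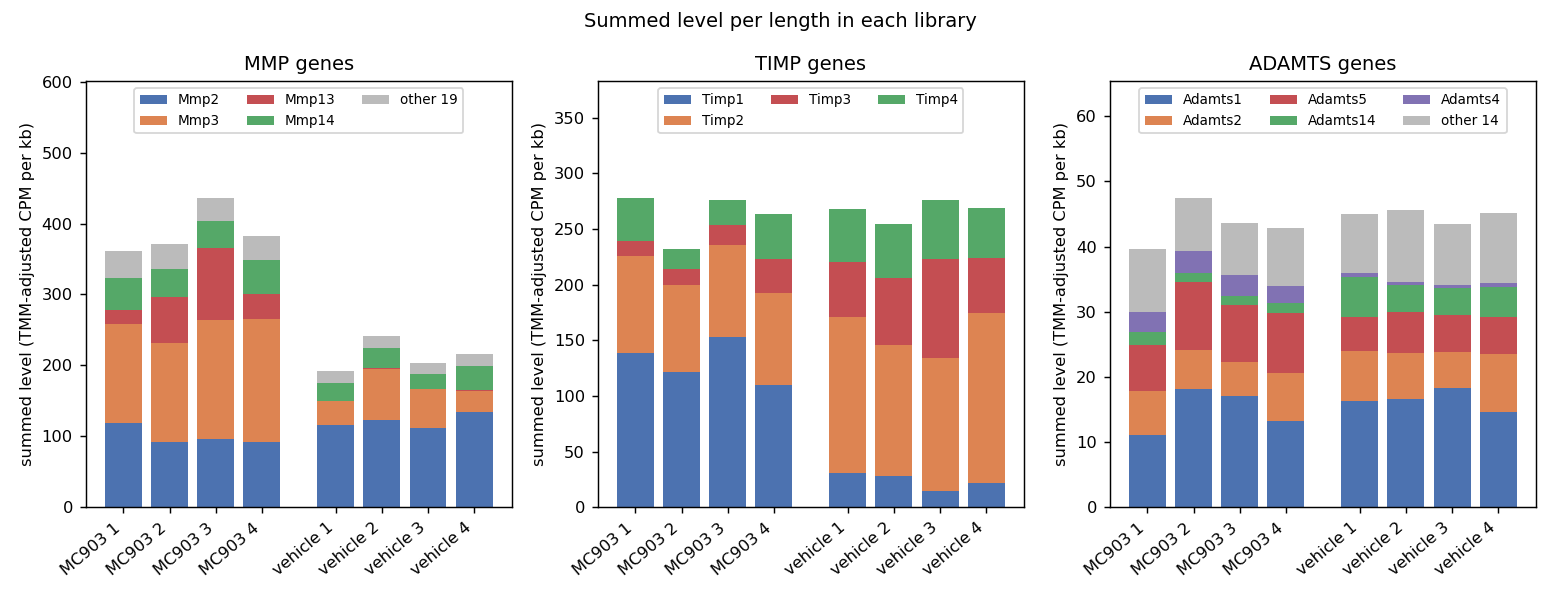
Summed level of the MMP, TIMP and ADAMTS genes in each library, in TMM-adjusted CPM per kilobase of exonic length, divided by gene. The TIMP bars reach 232 to 277 in MC903 ears and 255 to 276 in vehicle ears with a larger Timp1 segment in MC903 ears, and the MMP bars reach 362 to 435 in MC903 ears and 193 to 242 in vehicle ears.

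Genes that act with these enzymes were listed by role. In the plasmin system, which activates several MMP precursors, 3 of 7 tested genes were higher and none lower. The urokinase receptor Plaur averaged 56.4 ± 14.4 CPM in MC903 ears and 15.7 ± 1.12 CPM in vehicle ears (1.85 ± 0.17), urokinase Plau rose by 1.59 ± 0.25, and the inhibitor Serpinb2 rose by 0.96 ± 0.21. Plasminogen itself, Plg, was near 0 in both groups. Of 8 tested genes in the list of other MMP regulators, 2 were higher and 4 lower. The 3 with the smallest adjusted p were all lower. The membrane-anchored MMP inhibitor Reck had 16.8, 23.3, 25.8 and 28.0 CPM in MC903 ears, against 77.2, 63.9, 78.0 and 72.5 CPM in vehicle ears (-1.64 ± 0.16). The broad proteinase trap A2m fell by 2.13 ± 0.22 and the testican Spock2 by 1.5 ± 0.17 on the log2 scale. Furin, which activates Mmp11 and Mmp14 inside the cell, averaged 133 ± 26.8 CPM in MC903 ears and 81.5 ± 11.5 CPM in vehicle ears and rose by 0.71 ± 0.16 (adjusted p = 0.0053). Pcsk6, another proprotein convertase of the list, averaged 27.1 ± 1.44 CPM in MC903 ears and 54.4 ± 9.72 CPM in vehicle ears and fell (-1.01 ± 0.14, adjusted p = 0.000188).

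Of 9 ADAM proteinases tested, which shed cell-surface proteins, 5 were higher and 1 lower. Adam12 (2.01 ± 0.19), Adam8 (1.41 ± 0.14) and Adam10 (1.08 ± 0.16) had the smallest adjusted p. Astacins and procollagen C-proteinase genes were lower in 2 of 4 cases, namely the enhancer Pcolce2 (-1.23 ± 0.14) and Tll1 (-0.92 ± 0.24). ADAMTS-like proteins and papilin, which lack the catalytic domain or act as partners of ADAMTS enzymes, were lower in 5 of 7 cases and higher in 1, with Adamtsl3 at -1.26 ± 0.14, Thsd4 at -1.21 ± 0.17 and Papln at -1.10 ± 0.20. Among the proteoglycan and cartilage substrates 3 of 5 were lower and 1 higher. Aggrecan, Acan, averaged 53.3 ± 6.36 CPM in MC903 ears and 138 ± 15.8 CPM in vehicle ears (-1.37 ± 0.14), cartilage oligomeric matrix protein, Comp, fell by 1.31 ± 0.19 and decorin, Dcn, by 0.74 ± 0.19, whereas versican, Vcan, was higher by 0.56 ± 0.20 (adjusted p = 0.0406).

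Markers of several cell types also moved. All 5 tested of 10 neutrophil markers were higher, and the 10 together summed to 1348, 1414, 1036 and 405 CPM in MC903 ears, against 39.7, 69.3, 33.8 and 115 CPM in vehicle ears. S100a8 and S100a9 made up most of these sums. MC903 replicate 4 was the lowest of its group in the sum, in Mmp25 and in the tested markers S100a8, S100a9, Cxcr2 and Csf3r. Retnlg, the remaining tested marker, and Mmp8 were lowest in MC903 replicate 3. The granule genes Mpo, Elane, Ltf and Camp had averages under 1 CPM in both groups and were not tested. Mpo had 13 counts over the MC903 libraries and 53 over the vehicle libraries, and Elane had 6 and 12. Ltf had 25 and 8, and Camp 12 and 13. Ly6g, also not tested, had 6 and 0. Macrophage and monocyte markers were higher in 10 of 10 cases and summed to 1977 to 2841 CPM in MC903 ears and 863 to 1026 CPM in vehicle ears. Fibroblast markers were lower in 1 of 8 cases and higher in none, with sums of 7627 to 11287 CPM in MC903 ears and 11140 to 15492 CPM in vehicle ears. Cartilage markers were lower in 6 of 7 cases, with sums of 272 to 320 CPM in MC903 ears and 580 to 724 CPM in vehicle ears, and Schwann cell markers in 6 of 6. Mast cell markers were higher in 4 of 6 cases and lower in none, with sums of 543 to 899.7 CPM in MC903 ears and 391 to 441 CPM in vehicle ears. Hair follicle markers went both ways, 2 higher and 4 lower of 7. All 5 tested of 8 salivary gland markers were called lower, and their list summed far higher in vehicle replicate 2 than in any other library. In the lists not yet named, 1 marker or none passed in either direction. Of these, 1 of 6 endothelial and 1 of 6 suprabasal keratinocyte markers were higher, and 1 of 6 smooth muscle and pericyte markers was lower. The part of these cells in the members' changes was not tested.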

How the data were processed

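For each of the 8 libraries the authors deposited raw read counts by Ensembl gene, and CPM and RPKM made from them. STAR 2.0.4b, Subread, featureCounts 1.4.5 and the mm10 build are named in the submitters' processing notes. How strand and multiply mapped reads were treated is not given in the sources used here. Per the labels' protocols, ribosomal RNA was removed from total RNA and single reads of 50 bases were sequenced. The deposited CPM and RPKM values were recomputed from the counts and matched them to within 2.33e-10 and 5.82e-11. All results rest on the counts. Levels between genes had been planned on the deposited RPKM, but the salivary transcripts in vehicle replicate 2 lowered every other RPKM there, so TMM-adjusted CPM per kilobase was used, which leaves ratios within a library as they were.

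Symbols came from a table of gene names, which named 40254 of 41388 identifiers. Genes were filtered with filterByExpr by group (10 counts at the median depth in 4 libraries), and scaled with TMM factors. edgeR 4.0.16 (R 4.3.3) gave the quasi-likelihood test, with group as the only term and adjustment over all genes tested. The standard error is the log2 fold change divided by the square root of F. The members and lists were chosen with earlier results of these data known. Members past the threshold with a mean of at least 1 CPM in a group are given library by library, as are those not called whose level per length is among the 10 highest. The others are given by ranges or counts, and related lists by up to 3 called genes with the smallest adjusted p, and Furin, Pcsk6, Vcan and Plg were picked with their values in view. Alternatives were other normalizations, filters and tools (DESeq2 1.42.0, limma-voom in limma 3.58.1), a replicate block, a 1.5-fold minimum and leaving out each library. Intervals used scipy 1.17.1. Every 2 libraries differed by far more than sampling noise (chi-square per degree of freedom at least 11.0).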

Additional observations from a re-analysis of the deposited data

Results flagged for a closer look

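In 5 of 76 groups of 4 libraries, a single library lay far from the other 3. Chance flags about 1 group in 20, so a number like this can arise without any cause. Mmp12 stood at 46.5 CPM in MC903 replicate 2, against 26.6 to 29.4 CPM in the other 3. Mmp13 stood at 3.77 CPM in vehicle replicate 2, the library with the salivary transcripts, against 0.825 to 0.999 CPM in the others. Adamts14 stood at 10.7 CPM in MC903 replicate 1, against 7.33 to 7.46 CPM. Mmp16 stood at 7.38 CPM in MC903 replicate 4, against 2.42 to 3.10 CPM. Adamts17 stood at 4.43 CPM in vehicle replicate 4, against 2.07 to 2.47 CPM.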

How the results depend on the processing

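The 13 members higher were 13 under each alternative except without a filter, where Mmp1b was also called and the count was 14, and against a 1.5-fold minimum, where it was 9. The number lower was 9 and ran from 7 to 10 under the other settings with all libraries. It ran from 4 (without MC903 replicate 3) to 9 when single libraries were left out. Over all genes, the number lower ran from 2554 (without MC903 replicate 3) to 3392 when single libraries were left out. Against a 1.5-fold minimum (glmTreat), 3 members were lower, and over all genes 1464 were higher and 958 lower, beside 3423 and 3259. That minimum asks for a larger change by construction. Of 22 called members, 17 passed under every other alternative that measured them. The other 5, all lower, were Adamts10, Adamts18, Adamts20, Mmp15 and Timp4. Called under a single alternative were Adamts12 (without MC903 replicate 4, adjusted p = 0.0293), Adamts6 (upper quartile factors, 0.0467) and Mmp2.

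Signs turned only in members that did not pass the test. Adamts17 was 0.025 with limma-voom and 0.0156 with the replicate block. With single libraries left out, Adamts17 ran from -0.1815 to 0.285, Mmp16 from -0.6092 to 0.0344, Mmp23 from -0.4113 to 0.0919 and Mmp9 from -0.0573 to 0.416. The cause was not tested. The sample titles give replicate numbers only. Same-numbered libraries had correlations of their deviations from the group means of 0.08, -0.15, -0.15 and -0.20. Differently numbered pairs ran from -0.18 to 0.34, so these values do not settle whether any libraries were paired. With the replicate number as a block, 13 members were higher and 7 lower, and over all genes 2973 and 2732. The TIMP to MMP ratio, MC903 minus vehicle, was -0.58 and ran from -0.65 to -0.54 with single libraries left out. Depth limits the 8 members not tested.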
